A study of Mus musculus with 20 samples.

Results

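The data described here are the cortical expression profiles of 6 mice with experimental autoimmune encephalomyelitis (EAE), set gene by gene against the average clinical grade that the labels give for each mouse. In EAE, which models multiple sclerosis, immunity raised against myelin paralyses the animal from the tail upward, and the clinical grade is a score of that paralysis, higher when more of the body is affected. The 6 mice gave 12 of the 20 arrays of the study, 1 from tissue enriched for motor cortex and 1 from tissue enriched for sensory cortex of each mouse. The 2 arrays of a mouse were averaged, so that n is 6 mice unless healthy mice enter a fit or a mouse is left out.

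All 10 mice of the study were female C57Bl6 mice of 8 to 12 weeks. The EAE mice were immunised with a peptide of the myelin protein MOG, 100 µg under the skin of the flanks and 50 µg at the base of the tail. They also received 400 ng of pertussis toxin on days 0 and 3. The 4 healthy mice lived in the same cages, and the labels describe no injection for them. Brains were collected on day 21 according to the protocol and on days 18 to 21 according to the labels, from mice with paralysis of one or both hindlimbs. The healthy mice have no grade. They serve here as a reference level, in the cohort effect estimated from all 10 mice and in the comparison of EAE with healthy mice. EAE mouse 1 had the lowest average grade, 2.50, and EAE mouse 3 had 2.75. EAE mice 2 and 4 both had a grade of 3.00, and EAE mice 5 and 6 both had 3.50. Over what period the grade was averaged is not given in the sources used here.

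Grade overlapped cohort. EAE mice 1, 2 and 3 belonged to the first of 2 cohorts, with a mean grade of 2.75, and EAE mice 4, 5 and 6 to the second, with a mean of 3.33. Pearson's r between grade and cohort was 0.798, and 36.4% of the variance of the grade lay within cohorts. The pair at grade 3.00 is the only one in which mice of both cohorts share a grade. Slopes of mouse means were therefore fitted alone, with cohort as a covariate, and with the cohort effect estimated from all 10 mice, the healthy mice of both cohorts included. The last of these fits takes the cohort effect to be equal in EAE and healthy mice. A slope printed without a named fit is for grade alone, and slopes in motor or sensory arrays were fitted without cohort.

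Paralysis in EAE is known to follow chiefly from inflammation and myelin damage in the spinal cord. The cortex is far from those lesions, but it is reached by circulating cytokines, by cells that cross the vessel wall and by the stress hormone response. Interferons induce antigen-presenting MHC genes and antiviral genes in microglia and endothelium. Interleukin-1 and related cytokines induce acute-phase genes such as Lcn2 in astrocytes and vessels, and glucocorticoids induce genes such as Fkbp5 in many cell types. Each of these programmes can be read in tissue RNA, and in such bulk tissue fewer cells of a type and less RNA per cell cannot be told apart.

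The tissue had the markers of cortex. The vesicular glutamate transporter gene Slc17a7 lay at 12.67 to 12.94 on the deposited log2 scale in the 6 EAE mice, and the GABA-synthesising enzyme gene Gad1 at 13.21 to 13.46. The choroid plexus marker Ttr lay at 9.09 to 9.38, the striatal receptor gene Drd2 at 6.84 to 7.27 and the haemoglobin gene Hba-a1 at 5.99 to 6.50. Drd1, another striatal receptor gene, lay higher, at 8.66 to 9.21, and the choroid plexus genes Kl and Folr1 at 6.74 to 6.94 and 7.57 to 7.79. Of the genes of meninges and fibroblasts, Dcn lay at 9.29 to 9.7 and Col1a1 at 7.4 to 7.8. Levels thus differed between markers of one tissue, and the amount of neighbouring tissue was not tested. Medians of the 20 arrays were 8.22 to 8.32. The motor array of EAE mouse 1 and the sensory array of EAE mouse 3 had the narrowest spread of values, with SDs of 2.155 and 2.156 against 2.188 to 2.25 in the others. The sensory array of EAE mouse 3 also correlated least with its group, at a mean r of 0.9892. All 12 EAE arrays carried the same chip processing date. Among the healthy arrays, the motor array of healthy mouse 4 and the sensory array of healthy mouse 1 carried another date. The part of that date in the healthy levels, and in the fits that include healthy mice, was not tested.

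No gene passed the test for grade. With limma and Benjamini-Hochberg adjustment over 18194 genes, 0 genes (0.0%) had an adjusted p under 0.05, and the smallest adjusted p was 0.274, for Spata16. At an unadjusted p under 0.05 there were 1444 genes (7.94%), of which 575 (3.16%) had higher values at higher grades and 869 (4.78%) had lower values. After quantile normalization of the arrays this split turned round, to 834 (4.58%) and 597 (3.28%) genes. Positive slopes thus made up 39.8% of the genes under that p as deposited and 58.3% after quantile normalization. The median slope of all genes was -0.017 log2 units per unit of grade, and the median standard error was 0.10. Slopes are given below as measured values, and none of them counts as a change that passed the test in mouse means.

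The direction of the slopes moved with the level of the genes. The genes were ranked by level and divided into 4 groups of equal size, and the median slope was -0.066 in the lowest group, -0.043 in the next, and 0.002 and 0.015 in the upper groups. After quantile normalization the same medians were -0.005, 0.021, 0.002 and -0.011. The part of the array distributions in the slopes of weakly expressed genes was not tested beyond this.

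The genes that followed the grades mouse by mouse were counted without a test. Under random assignment of these grades, with 180 distinct assignments, a gene would keep the order in a given direction with a probability of 0.00556. In 114 genes (0.627%) the mean of every mouse of a higher grade lay above that of every mouse of a lower grade, and in 174 (0.956%) it lay below. In motor arrays alone these counts were 116 (0.638%) and 257 (1.41%), and in sensory arrays alone 54 (0.297%) and 88 (0.484%). Only 6 genes kept the order in both areas, 2 upward (0.011%) and 4 downward (0.022%). Myh11, the myosin heavy chain of smooth muscle, and Nfx1, an RNA- and DNA-binding zinc finger protein, went upward. The locus of the microRNA Mir138-2, the odorant receptor gene Olfr976 and the clone models 1700025G04Rik and 5330434G04Rik went downward.

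Of the 1444 genes under the unadjusted threshold, 1435 kept the sign of their slope with cohort as a covariate and 1436 with the cohort effect from 10 mice. In 1242 of them the slope had that sign within each cohort, and in 1420 it had that sign in both areas. These genes were chosen on the same arrays, so the shared sign is largely set by that choice and is given as a description. With cohort as a covariate 1010 genes (5.55%) were under an unadjusted p of 0.05, with a smallest adjusted p of 0.786. With the cohort effect from 10 mice there were 1834 (10.1%), with a smallest adjusted p of 0.356, and 817 of the 1444 were among them. Neither fit called a gene.

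The gene with the smallest p was Spata16, a gene known from the formation of the sperm acrosome. In order of grade its means were 6.65 (mouse 1), 6.85 (mouse 3), 7.04 in both mice of grade 3.00, and 7.33 and 7.51 (mice 5 and 6). No mouse of a higher grade overlapped one of a lower grade, and the 4 healthy mice lay at 6.70 to 7.05, inside the range of the EAE mice. The slope was 0.76 ± 0.09 (SE, n = 6 mice; limma adjusted p = 0.274), which is 1.70-fold per unit of grade with a 95% interval of 0.57 to 0.96 in log2. Pearson's r was 0.98 with an exact permutation p of 0.00556, the smallest that the 180 distinct assignments of these grades allow, and Spearman's rank correlation was 0.97 (exact permutation p = 0.0111). Mice 1, 5 and 6 lie equally far from the median grade, and r without any pair of them rounded to 1.00. Spata16 and the genes that follow were chosen for their p in this same fit, so their correlations and permutation p are descriptions that are not corrected for that choice. The slope stood at 0.78 within the first cohort and 0.76 within the second, and at 0.77 with cohort as a covariate. The motor slope was 1.19 ± 0.14 and the sensory slope 0.34 ± 0.19. The level of Spata16 lies at the 18th percentile of genes, and its other probe set had a slope of -0.24, so the measurement rests on a single dim probe set.

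Gadd45g, a growth arrest and DNA damage response gene that is induced by many stresses, had means of 9.32 and 9.27 in mice 1 and 3, 9.73 in both mice of grade 3.00, and 10.06 and 10.08 in mice 5 and 6. The mice of grade 3.50 lay above all others and above the healthy range of 9.33 to 9.59, while mice 1 and 3 lay below that range. The slope was 0.84 ± 0.11 (limma adjusted p = 0.491), or 1.78-fold per unit of grade, with r = 0.96 (exact permutation p = 0.0222), a Spearman correlation of 0.91 (exact permutation p = 0.0222) and r between 0.87 and 0.94 without pairs of mice 1, 5 and 6. It stood at 0.74 with cohort as a covariate.

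Among genes of vessels, Slc2a1, which encodes the glucose transporter of the blood-brain barrier, had means of 11.82, 12.00, 12.16, 12.12, 12.26 and 12.47 in mice 1, 3, 2, 4, 5 and 6. These values followed the grades without overlap, and the 5 mice of grade 2.75 or more lay above the healthy range of 11.55 to 11.93. The slope was 0.53 ± 0.09 (limma adjusted p = 0.615), and both other probe sets of the gene had positive slopes, 0.38 and 0.37. Myh11 had means of 8.03, 8.28, 8.44, 8.42, 8.60 and 8.59 in the same order of mice. Mouse 1 lay below the healthy range of 8.15 to 8.35 and the mice of grades 3.00 and 3.50 above it, with a slope of 0.52 ± 0.09.

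These vascular slopes were not shared by the markers of their cell types as a whole. Of 13 measured endothelial identity genes 6 had positive slopes, with a median of -0.01. Besides Slc2a1, the drug efflux pump gene Abcb1a (0.22 ± 0.09) and the adhesion gene Pecam1 (0.21 ± 0.09) were positive at an unadjusted p under 0.05, and the endothelial cadherin gene Cdh5 was negative at -0.29 ± 0.10. Of 10 mural cell genes 4 had positive slopes, with a median of -0.01. Kcnj8, a potassium channel subunit of pericytes, stood at 0.34 ± 0.11, whereas Anpep and Acta2 stood at -0.35 ± 0.16 and -0.15 ± 0.10. List members given here beyond the rule for named genes were chosen after their values were seen.

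The other genes among the 10 positive slopes of smallest p belong to no list fixed here. Hmgb2, a chromatin protein of dividing and activated cells, had means of 7.88, 8.19, 8.33, 8.36, 8.47 and 8.68 in the order of grade and a slope of 0.63 ± 0.10. Hmgb2 has near-identical copies in the genome, and of its 2 other probe sets one stood at 0.68 and the other at -0.04. Tmem252, a transmembrane protein gene, ranged from 7.78 in mouse 1 to 9.17 in mouse 6, with a slope of 1.06 ± 0.19, the steepest of the 10. The tubulin-binding protein gene Tppp3 stood at 0.54 ± 0.09, the guanine nucleotide exchange factor gene Arhgef3 at 0.46 ± 0.08, the Rab5 effector gene Rin2 at 0.49 ± 0.09 and Ctla2b, a cysteine protease inhibitor gene, at 0.66 ± 0.12. With cohort as a covariate Hmgb2, Tmem252, Tppp3, Arhgef3, Rin2 and Ctla2b stood at 0.63, 1.18, 0.37, 0.54, 0.65 and 0.37. With the cohort effect from 10 mice they stood at 0.64, 1.22, 0.26, 0.64, 0.33 and 0.42.

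**Figure D1:**
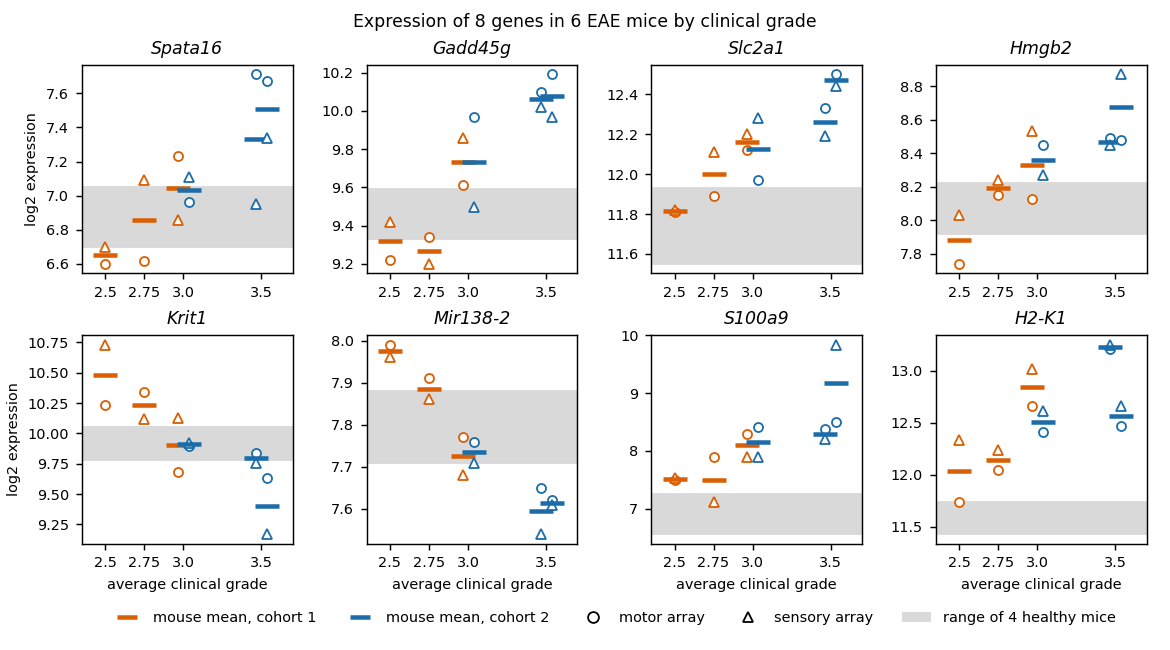
Log2 expression (vertical axis) of 8 genes in the 6 EAE mice by average clinical grade (horizontal axis); circles are motor arrays, triangles sensory arrays, bars the mean of a mouse, colours the cohort and grey bands the range of the 4 healthy mice. Mice of equal grade are drawn slightly apart. The bars of Spata16, Slc2a1, Hmgb2 and Krit1 follow the grades without overlap, whereas H2-K1 differs by 0.67 between the mice of grade 3.50.

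The steepest of the 10 negative slopes was that of Krit1, which encodes a scaffold protein that keeps endothelial junctions closed and whose loss causes cerebral cavernous malformations. Its means were 10.48, 10.23, 9.91, 9.91, 9.80 and 9.40 in mice 1, 3, 2, 4, 5 and 6. The mice of lowest grade lay above the healthy range of 9.78 to 10.05 and mouse 6 lay below it. The slope was -0.85 ± 0.14 (limma adjusted p = 0.591), a 1.80-fold lower value per unit of grade, with r = -0.92 (exact permutation p = 0.0222) and a Spearman correlation of -0.97 (exact permutation p = 0.0111). Without pairs of mice 1, 5 and 6, r was at or below -0.84. Of its 4 other probe sets 3 had negative slopes, from -0.57 to -0.43, and the remaining one stood at 0.04.

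Nkx2-2, a transcription factor of the oligodendrocyte lineage, had means of 8.56, 8.33, 8.34, 8.30, 8.15 and 7.88 in the same order and a slope of -0.52 ± 0.11. Mouse 1 lay inside the healthy range of 8.48 to 8.80 and the other 5 mice lay below it. Of 8 measured genes of oligodendrocyte precursors 6 had negative slopes, against 55.6% of all genes, and the list median was -0.10. Gpr17, a receptor of precursors about to mature, was the member of smallest p at -0.32 ± 0.12. With cohort as a covariate the median of this list was 0.03, on the other side of zero.

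The remaining negative slopes of smallest p were spread over unrelated genes. Pappa2, a protease that frees insulin-like growth factor from its binding proteins, stood at -0.55 ± 0.10, with a motor slope of -0.91 ± 0.15 and a sensory slope of -0.19 ± 0.15. Bcl2l11, a pro-apoptotic member of the Bcl2 family, stood at -0.38 ± 0.08, and all 4 of its other probe sets had negative slopes. The translational repressor gene Samd4 stood at -0.41 ± 0.08, the Ral exchange factor gene Rgl1 at -0.42 ± 0.09, Cobll1, an actin regulator gene, at -0.40 ± 0.09 and the homeobox gene Hoxb6 at -0.42 ± 0.09. H3f3a, a gene of the histone variant H3.3 that has near-identical copies, stood at -0.39 ± 0.08.

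Mir138-2 was the microRNA locus among them. Its means were 7.98, 7.88, 7.72, 7.73, 7.59 and 7.61 in mice 1, 3, 2, 4, 5 and 6, without overlap between grades in mouse means or in either area. The slope was -0.37 ± 0.08 (limma adjusted p = 0.623), with -0.35 ± 0.10 in motor and -0.38 ± 0.09 in sensory arrays, and r was -0.98 (exact permutation p = 0.00556), with a Spearman correlation of -0.97 (exact permutation p = 0.0111) and r between -0.99 and -0.94 without pairs of mice 1, 5 and 6. The healthy mice lay at 7.71 to 7.88, in the middle of the EAE range. The probe set measures RNA of the locus and not the mature microRNAs, whose sequences are shown here to identify the locus, with the seed at bases 2 to 8 in capitals. They lie on the plus strand of chromosome 8 of GRCm38.p6, at chr8:94324312-94324334 and chr8:94324359-94324379, and are given 5′ to 3′ from RefSeq.
mmu-miR-138-5p: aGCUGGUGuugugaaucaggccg
mmu-miR-138-2-3p: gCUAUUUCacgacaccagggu
The arms have different seeds, and the 5p arm is known as a brain microRNA that limits the size of dendritic spines.

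The gene lists of antigen presentation and interferon response had the largest median slopes of the 33 lists described, which held 371 measured entries. All 6 measured MHC class II genes had positive slopes, with a median of 1.06 log2 units per unit of grade, but 0 of them were under an unadjusted p of 0.05. All 10 measured genes of MHC class I and peptide loading were positive, with a median of 0.73, and 4 of them were under that p. Of 24 measured interferon response genes 22 were positive, with a median of 0.60, and 3 were under that p. Over all 18194 genes 44.4% of slopes were positive, the median was -0.02, and 3.16% were positive under that p. Negative slopes made up 55.6% of all genes, and 4.78% were negative under that p. These shares are the reference for every list count given here. No member of these lists passed the adjusted threshold.

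The class I heavy chain gene H2-K1 had means of 12.04, 12.14, 12.84, 12.51, 13.23 and 12.56 in mice 1, 3, 2, 4, 5 and 6, and all 6 lay above the healthy range of 11.43 to 11.74. The slope was 0.88 ± 0.24 (limma adjusted p = 0.623), and all 3 other probe sets had positive slopes. H2-D1, the other classical heavy chain, stood at 0.67 ± 0.19, the light chain gene B2m at 0.44 ± 0.13 and Tapbp, the chaperone tapasin, at 0.55 ± 0.23. The immunoproteasome gene Psmb9 and the peptide transporter gene Tap1 stood at 1.02 ± 0.51 and 0.87 ± 0.45, with unadjusted p of 0.0782 and 0.0863 in limma.

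The class II genes had steeper slopes and larger errors. H2-Aa, the class II alpha chain, had means of 9.44, 8.75, 11.54, 9.98, 11.65 and 9.71 in mice 1, 3, 2, 4, 5 and 6, against 7.46 to 7.96 in healthy mice. Every EAE mouse was above the healthy range, and mice 2 and 5 stood above the rest. The slope was 1.54 ± 0.86 (limma adjusted p = 0.65), with a 95% interval of -0.43 to 3.50. The invariant chain gene Cd74 repeated this order, with 9.92, 9.73, 11.65, 10.46, 11.95 and 10.12 in the same mice and a slope of 1.23 ± 0.69. H2-Ab1, the beta chain, stood at 1.18 ± 0.56.

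Equal grades did not go with equal levels in these lists. The mean of the class II list was 8.92, 8.65, 10.08, 9.24, 10.31 and 9.07 in mice 1, 3, 2, 4, 5 and 6, and 8.06 to 8.22 in healthy mice. It differed by 1.24 between the mice of grade 3.50, which belong to the same cohort, and by 0.83 between the mice of grade 3.00. The interferon list mean differed by 0.98 and 0.66 within those pairs and the class I mean by 0.83 and 0.49. Mouse 6 thus had one of the highest grades with interferon and class I means below those of mouse 4 at grade 3.00. Over all genes the median absolute difference was 0.08 within the pair of grade 3.50 and 0.10 within the pair of grade 3.00.

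The slopes of these lists therefore moved with single mice. Without mouse 5 the median of the class II list was 0.41 and without mouse 6 it was 1.92. For class I the range was 0.32 (without mouse 5) to 1.11 (without mouse 6), and for the interferon list 0.22 (without mouse 1) to 1.22 (without mouse 6). With cohort as a covariate the 3 medians were 1.75, 1.06 and 1.29, and with the cohort effect from 10 mice 1.37, 0.87 and 0.90. The fit from 10 mice takes 1 cohort effect for EAE and healthy mice. At grade 3.00 the second cohort minus the first was -1.55 for H2-Aa, -0.34 for H2-K1 and -0.61 for Ifit3. In healthy mice these differences were -0.21, -0.20 and -0.06. Within the first cohort they were 2.62, 1.44 and 2.59, and within the second 1.09, 0.61 and 0.23. The motor array of mouse 1, whose values had a narrow spread, also bore on them: without it the medians were 0.80, 0.46 and 0.36.

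**Figure D2:**
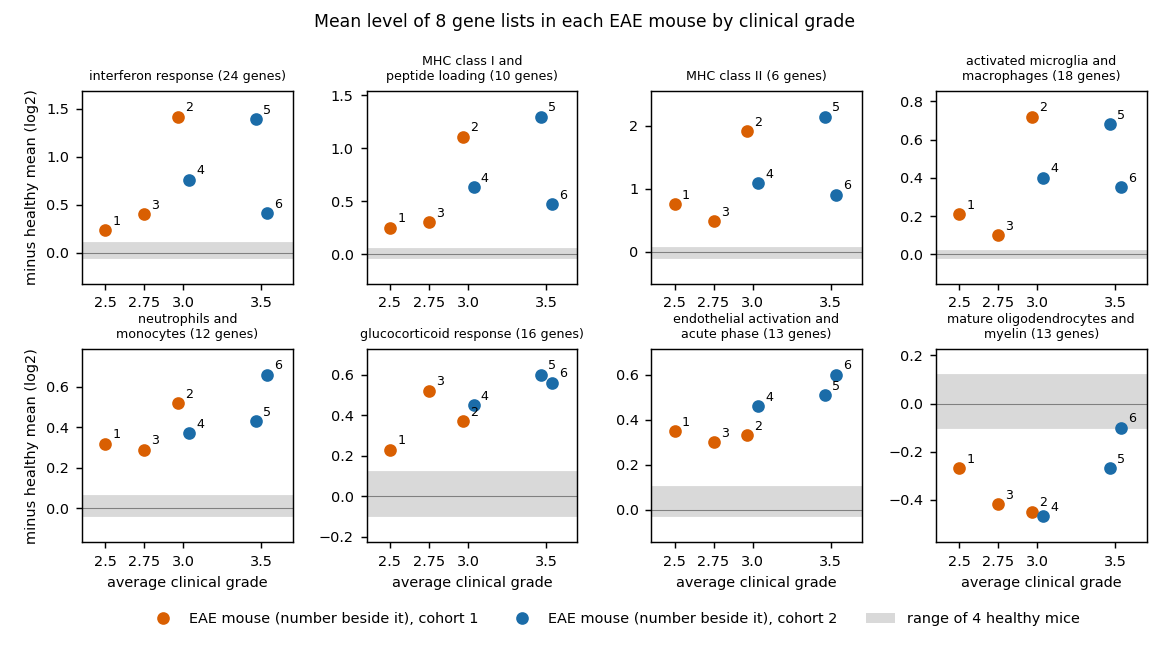
Mean log2 level of the measured genes of 8 lists in each EAE mouse minus the mean of the 4 healthy mice (vertical axis) by average clinical grade (horizontal axis), with mouse numbers beside the points, colours for the cohorts and grey bands for the range of the healthy mice. In the interferon and MHC panels mice 2 and 5 are highest and mouse 6, of the same grade as mouse 5, lies well below it; in the endothelial panel mouse 6 is highest at 0.60.

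Among single interferon genes, Ifi27l2a had the smallest p in its list, with means of 8.06, 8.35, 9.37, 8.81, 9.51 and 8.73 in mice 1, 3, 2, 4, 5 and 6 and a slope of 0.99 ± 0.35 (limma adjusted p = 0.623). Ifit3, an antiviral protein induced by interferon, had 9.91, 10.50, 11.32, 10.71, 11.34 and 10.31, against 9.58 to 9.76 in healthy mice. Mice 2 and 5 were again highest, and the slope was 0.71 ± 0.42. Irf7, a transcription factor of the interferon response, stood at 0.22 ± 0.23, and its slope was -0.10 without mouse 5. Ifitm3 and Ifi35 stood at 0.94 ± 0.40 and 0.62 ± 0.26, while Mx2 and Oas2 were the members with negative slopes, -0.10 ± 0.08 and -0.08 ± 0.08.

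The promoters of these genes were searched for an element through which interferon-activated factors bind DNA. The core of that element was searched on both strands as GAAA, any 2 bases and GAAA again, in windows of 300 bases, 250 before and 50 after the start of each gene, from RefSeq. It was found in 11 of 17 interferon list genes with a promoter (64.7%), against 1079 of 27025 genes (3.99%). In the class I list it was found in 1 of 8 promoters, that of B2m, and in 0 of 3 class II promoters. A match or a miss is only a description of these letters. Other forms of the element, and other elements that respond to interferon, were not searched, so the shares do not compare the lists in their response. The 250 bases before the starts of Ifit3 and B2m are shown with matches in capitals, Ifit3 as a named gene of the interferon list and B2m as the single class I gene with a match. Both lie on the plus strand of GRCm38.p6, at chr19:34583279-34583528 and chr2:122147437-122147686.
Ifit3: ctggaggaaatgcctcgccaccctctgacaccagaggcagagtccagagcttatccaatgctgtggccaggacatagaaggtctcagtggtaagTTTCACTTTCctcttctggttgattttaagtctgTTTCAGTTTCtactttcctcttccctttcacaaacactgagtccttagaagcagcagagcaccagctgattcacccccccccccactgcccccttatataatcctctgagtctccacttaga
B2m: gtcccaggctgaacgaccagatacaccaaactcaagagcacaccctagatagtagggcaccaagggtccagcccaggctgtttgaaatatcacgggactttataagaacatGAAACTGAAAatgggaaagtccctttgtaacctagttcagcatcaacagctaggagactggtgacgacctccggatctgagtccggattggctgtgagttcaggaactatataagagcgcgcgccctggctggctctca
The Ifit3 window holds 2 matches and the B2m window holds 1.

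Genes of microglial activation and complement had smaller slopes with smaller errors. Of 18 measured genes of activated microglia and macrophages 16 had positive slopes, with a median of 0.29, and 7 were under an unadjusted p of 0.05. Among all genes 44.4% of slopes were positive and 3.16% were positive under that p. The lysosomal protein gene Cd68 had means of 9.22, 9.24, 9.54, 9.59, 9.66 and 9.61 in mice 1, 3, 2, 4, 5 and 6, which followed the grades without overlap, and a slope of 0.43 ± 0.10. Mice 1 and 3 lay below the healthy range of 9.28 to 9.37. Cd52, Aif1 and the Fc receptor gene Fcgr3 stood at 0.96 ± 0.39, 0.72 ± 0.28 and 0.52 ± 0.21, and Lpl, a lipoprotein lipase gene of lipid-laden microglia, at -0.22 ± 0.15. The median of the list was 0.20 without mouse 3 and 0.46 without mouse 6, and 0.14 without the motor array of mouse 1.

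All 9 measured complement genes had positive slopes, with a median of 0.28. The genes of the chains of C1q, which opens the classical pathway, were the 3 members under an unadjusted p of 0.05. Among all genes 44.4% of slopes were positive and 3.16% were positive under that p. C1qb had means of 11.67, 11.83, 12.40, 12.27, 12.51 and 12.19 against 11.59 to 11.73 in healthy mice, so that mouse 1 lay inside the healthy range and the others above it. Its slope was 0.66 ± 0.19, and those of C1qa and C1qc were 0.58 ± 0.18 and 0.53 ± 0.16. The median of the list was 0.46 without mouse 6 and 0.17 without the motor array of mouse 1.

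The genes of resting microglia had no common direction. Of 11 measured homeostatic genes 6 had positive slopes, with a median of 0.01. Cx3cr1, the fractalkine receptor, stood at -0.53 ± 0.22, with means of 9.87, 9.37, 9.44, 9.23, 9.51 and 8.89 in mice 1, 3, 2, 4, 5 and 6. P2ry12, the purine receptor of resting microglia, lay at 9.54 to 10.19 in EAE mice, below the healthy range of 10.65 to 10.98 in every mouse, yet its slope on grade was only -0.26 ± 0.20 and was 0.03 without mouse 1.

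Among genes of neutrophils and monocytes the subunits of calprotectin had the steepest slopes. S100a9, one of these subunits, had means of 7.51, 7.50, 8.10, 8.15, 8.29 and 9.18 in mice 1, 3, 2, 4, 5 and 6, all above the healthy range of 6.56 to 7.25. The slope was 1.34 ± 0.27 (limma adjusted p = 0.623), or 2.53-fold per unit of grade, and r was 0.87 (exact permutation p = 0.0278), with a Spearman correlation of 0.91 (exact permutation p = 0.0222) and r between 0.81 and 1.00 without pairs of mice 1, 5 and 6. S100a8, the other subunit, had 7.60, 7.29, 8.25, 7.86, 8.30 and 8.87, with a slope of 1.19 ± 0.27. Mouse 6 was highest for both, chiefly through its sensory array, at 9.84 for S100a9 and 9.44 for S100a8.

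The granule protein gene Ngp was the third member under an unadjusted p of 0.05, at 0.39 ± 0.17. Of the 12 measured genes of this list 7 had positive slopes, with a median of 0.08. The neutrophil receptor genes Csf3r and Cxcr2 stood at -0.16 ± 0.10 and -0.16 ± 0.12, and the granule enzyme genes Mpo and Elane at 0.03 ± 0.11 and -0.10 ± 0.10. The list mean was 7.50, 7.47, 7.70, 7.55, 7.61 and 7.84 in mice 1, 3, 2, 4, 5 and 6 and 7.14 to 7.24 in healthy mice. The part of cells in the vessels or tissue in the S100a8 and S100a9 slopes was not tested.

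The lymphocyte lists had medians just below zero for grade alone. Of 13 measured T cell genes 9 had negative slopes, with a median of -0.04, and the list mean lay between 7.16 and 7.28 in the 6 mice. Over all genes 55.6% of slopes were negative, with a median of -0.017. The T cell median turned to 0.09 with cohort as a covariate and to 0.01 with the cohort effect from 10 mice. After quantile normalization it was 0.02. Cd8a, the co-receptor chain of cytotoxic T cells, stood at -0.30 ± 0.11, with 3 of its 4 other probe sets of the same sign. Of 7 measured genes of B and plasma cells 5 had negative slopes, with a median of -0.09, and Pax5, a B cell transcription factor, was the member of smallest p at -0.14 ± 0.10.

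Genes of endothelial activation and the acute phase had a median slope of 0.21, with 10 of 13 positive and 5 under an unadjusted p of 0.05. Among all genes 44.4% of slopes were positive and 3.16% were positive under that p. Vwf, the clotting factor stored in endothelium, had means of 8.87, 8.97, 9.15, 9.43, 9.42 and 9.49 in mice 1, 3, 2, 4, 5 and 6, above the healthy range of 8.16 to 8.63 in every mouse. Its slope was 0.59 ± 0.12 (limma adjusted p = 0.623) and became 0.27 with cohort as a covariate. All 3 mice of the second cohort lay above those of the first, whatever their grade. Cebpd, a transcription factor of the acute phase, stood at 0.86 ± 0.19, the sterol hydroxylase gene Ch25h at 0.71 ± 0.26 and the glycoprotein gene Lrg1 at 0.37 ± 0.16. The median of this list was 0.02 with cohort as a covariate and 0.18 with the cohort effect from 10 mice, and it was 0.08 without mouse 3.

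Lcn2, the iron-carrier lipocalin, varied widely without following grade. Its means were 8.33, 6.42, 7.99, 9.46, 8.20 and 9.81 in mice 1, 3, 2, 4, 5 and 6, against 5.20 to 5.37 in healthy mice. All EAE mice were far above the healthy range, and mouse 1, of the lowest grade, stood above mouse 5. The slope was 1.42 ± 0.91 (limma adjusted p = 0.688) and turned to -0.81 ± 1.27 with cohort as a covariate. Gfap, the astrocyte filament gene, had 10.69, 10.60, 11.92, 11.18, 11.59 and 11.12 and a slope of 0.71 ± 0.37, while Serpina3n, a protease inhibitor of reactive astrocytes, stood at 0.09 ± 0.13. Of 14 reactive astrocyte genes 9 had positive slopes, with a median of 0.06 and 0 under an unadjusted p of 0.05 in either direction. Of 13 astrocyte identity genes 9 were positive, with a median of 0.08, and the folate enzyme gene Aldh1l1 stood at 0.32 ± 0.10.

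Glucocorticoid response genes had a median slope of 0.31, with 15 of 16 positive, against 44.4% of all genes. Of the 16, 7 were positive under an unadjusted p of 0.05, against 3.16% of all genes. The list mean was 11.35, 11.63, 11.48, 11.56, 11.71 and 11.68 in mice 1, 3, 2, 4, 5 and 6 and 11.02 to 11.24 in healthy mice. The kinase gene Sgk1 stood at 0.68 ± 0.23, the metabolic switch Pdk4 at 0.59 ± 0.20 and Errfi1, an inhibitor of epidermal growth factor signalling, at 0.36 ± 0.10. Fkbp5, a chaperone of the glucocorticoid receptor, had means of 10.70, 11.38, 11.58, 11.34, 11.41 and 11.22, with mouse 1 lowest and no further step above grade 2.75. Its slope of 0.38 ± 0.24 was -0.16 without mouse 1. Plin4, a lipid droplet coat protein, had 8.93 in mouse 1 and 9.41 to 9.51 in the others, and its slope of 0.38 ± 0.15 became 0.03 without mouse 1. The median of the list was 0.12 without that mouse and 0.17 with the cohort effect from 10 mice.

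Myelin genes had positive slopes among mice whose levels were mostly below those of healthy mice. The list mean of 13 measured genes of mature oligodendrocytes was 11.01, 10.87, 10.83, 10.82, 11.01 and 11.19 in mice 1, 3, 2, 4, 5 and 6, against 11.19 to 11.41 in healthy mice. The mice in the middle of the grade range were lowest, and mouse 6 reached the lower edge of the healthy range. Of the 13 genes 11 had positive slopes, with a median of 0.17. Mog, which encodes the protein from which the immunising peptide derives, stood at 0.53 ± 0.17, the tight junction gene Cldn11 at 0.47 ± 0.12 and Mbp, myelin basic protein, at 0.11 ± 0.09. The median was -0.35 within the first cohort and 0.61 within the second, and 0.01 without mouse 6 or without the motor array of mouse 1. Of 12 measured cholesterol synthesis genes 11 were positive, with a median of 0.14 and 0 under an unadjusted p of 0.05; Insig1, a brake on sterol synthesis, had the smallest p, at 0.41 ± 0.18.

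The list medians of neuronal genes for grade alone were 0.01 for excitatory and -0.02 for inhibitory neurons, -0.03 for synapses, -0.09 for upper layers and -0.01 for deep layers. Slc17a7 stood at -0.12 ± 0.11, Pvalb, the calcium buffer of fast interneurons, at -0.03 ± 0.10, and Gad1 at 0.19 ± 0.10. Tbr1, a transcription factor of deep layer neurons listed here among excitatory genes, stood at 0.48 ± 0.17, with 10.55, 10.60, 11.20, 10.76, 11.01 and 11.04 in mice 1, 3, 2, 4, 5 and 6. Cux1, a marker of upper layers, stood at -0.27 ± 0.08, and 7 of its 8 other probe sets had the same sign.

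Activity-induced genes moved with cohort and with single mice. Of 13 immediate early genes 12 had positive slopes, with a median of 0.25, and 0 were under an unadjusted p of 0.05. Fos had means of 12.27, 12.22, 11.08, 12.43, 13.33 and 11.97 in mice 1, 3, 2, 4, 5 and 6, so that mouse 5 was highest and mouse 2 lowest, with 11.62 to 12.30 in healthy mice. Npas4, a neuronal transcription factor induced by calcium entry, had 8.94, 8.70, 8.59, 9.63, 10.79 and 8.77. With cohort as a covariate the slopes of Fos and Npas4 turned from 0.50 and 1.03 to -0.76 and -0.13, and the median of the list to -0.44. Without mouse 5 the median was -0.06.

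The remaining lists included those that mark tissue the dissection could hold. For grade alone, medians were 0.08 for metallothioneins and iron, 0.07 for the circadian clock, 0.02 for oxidative phosphorylation and -0.06 for heat shock and protein folding. They were 0.05 for choroid plexus, 0.05 for meninges and fibroblasts, -0.06 for hippocampus, -0.08 for striatum and -0.17 for the 5 measured blood genes. The median of meninges and fibroblasts turned to -0.29 with cohort as a covariate, that of the circadian clock to -0.11 and that of oxidative phosphorylation to -0.08, and that of blood stood at -0.44. With the cohort effect from 10 mice these medians were -0.21, -0.07, -0.06 and -0.22, those of metallothioneins and iron and of striatum turned to -0.03 and 0.07, and that of hippocampus stood at -0.12. In the striatum list 7 of 8 slopes were negative, against 55.6% of all genes. Drd2 stood at -0.35 ± 0.13, with 7.25, 7.27, 6.84, 6.96, 6.89 and 6.95 in mice 1, 3, 2, 4, 5 and 6. Hba-a1 stood at -0.34 ± 0.14 and the ion channel gene Clic6 of choroid plexus at -0.27 ± 0.08. The part of the dissection in the slopes of other genes was not tested.

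**Figure D3:**
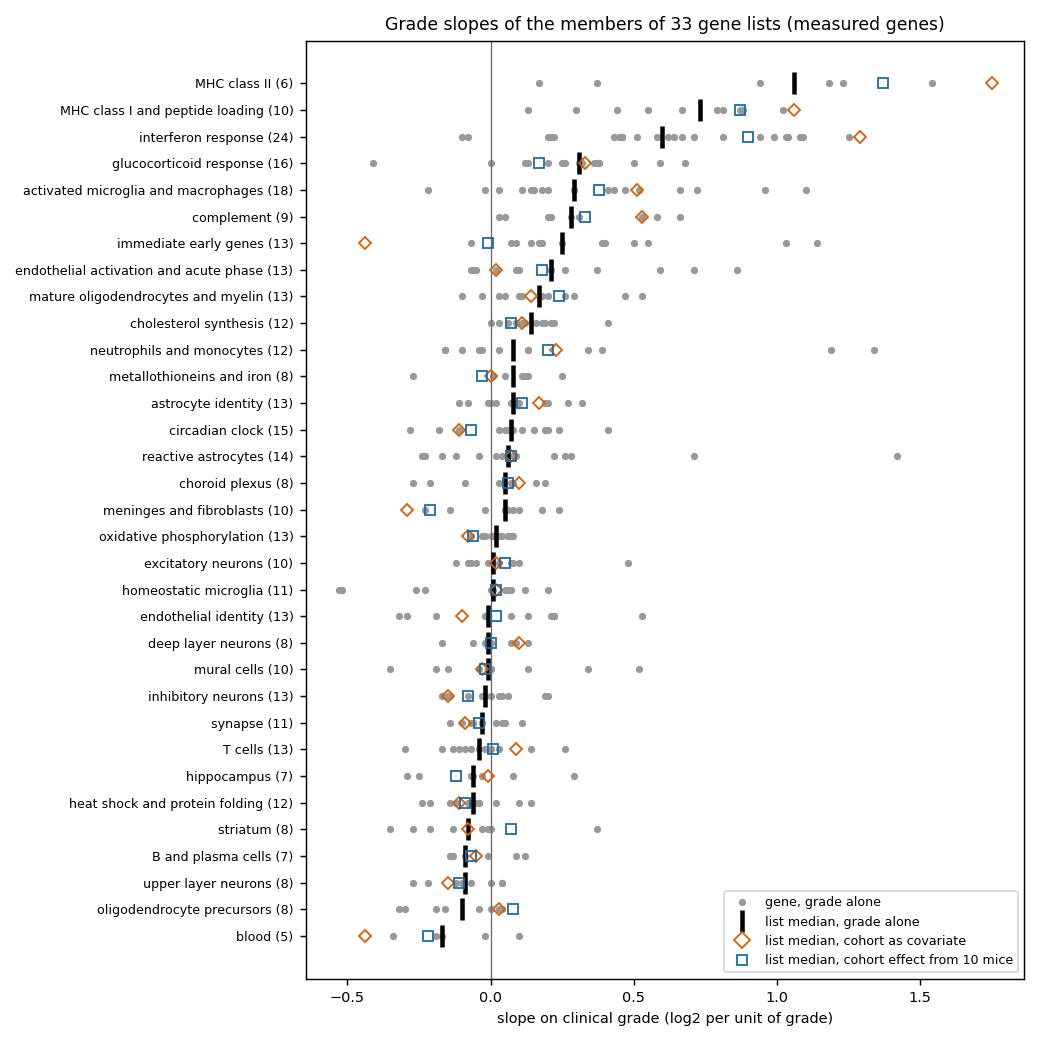
Slopes on clinical grade in log2 units per unit of grade (horizontal axis) for the measured members of 33 lists (vertical axis, number of measured genes in brackets): grey dots are genes, black bars list medians for grade alone, diamonds medians with cohort as a covariate and squares medians with the cohort effect from 10 mice. The MHC and interferon medians are at 0.60 to 1.06 for grade alone and above 0.80 in both cohort fits. The immediate early median goes from 0.25 to -0.44 with cohort as a covariate. The fit from 10 mice takes 1 cohort effect for EAE and healthy mice.

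Genes that differed between EAE and healthy mice were compared with their slopes among EAE mice. With limma on mouse means and cohort as a covariate 1431 of 18194 genes (7.87%) were called, 405 (2.23%) higher and 1026 (5.64%) lower in EAE. Of the 405 higher genes 293 (72.3%) had positive slopes on grade, 54 (13.3%) at an unadjusted p under 0.05, and 0 had a negative slope under that p. Over all genes these shares were 44.4% and 3.16%. The median slope of the 405 genes was 0.08, and it stood at 0.14 with cohort as a covariate. Of the 1026 lower genes 667 (65.0%) had negative slopes, 67 (6.53%) under that p, with 10 positive under it and a median of -0.04. Over all genes 55.6% of slopes were negative and 4.78% were negative under that p. Both comparisons use the same EAE mice, so these counts are a description. Lrg1 lay 1.46 above healthy mice (limma adjusted p = 2.53e-05) yet had a slope of 0.00 with cohort as a covariate.

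**Figure D4:**
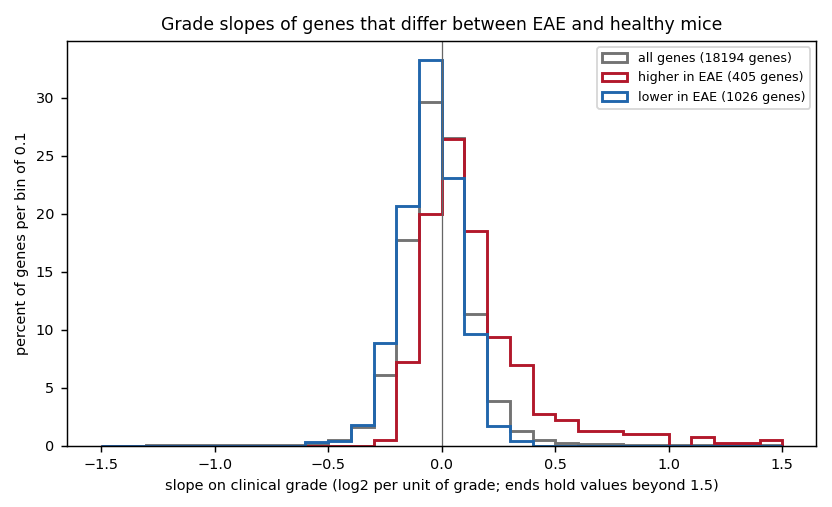
Percent of genes (vertical axis) in bins of 0.1 of the slope on clinical grade (horizontal axis) for all 18194 genes, the 405 genes called higher and the 1026 called lower in EAE than in healthy mice. The genes higher in EAE lie to the right, with a median of 0.08 and a tail beyond 1, and those lower in EAE have a median of -0.04.

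The areas were also fitted separately, for grade alone and without cohort. In motor arrays 4 genes (0.022%) were called, all with positive slopes and each at a limma adjusted p of 0.0208. They were Spata16 at 1.19 ± 0.14, Tmem252 at 1.48 ± 0.16, and the gene models 1700015C15Rik at 1.00 ± 0.11 and Gm8350 at 1.01 ± 0.12. The motor values of 1700015C15Rik rose from 5.58 in mouse 1 and 5.65 in mouse 3 to 5.93 and 5.98 at grade 3.00 and 6.51 in both mice of grade 3.50. This gene lies at the 7th percentile of levels and its sensory slope was -0.14 ± 0.31. At an unadjusted p under 0.05 there were 1847 genes (10.2%) in motor arrays and 494 (2.72%) in sensory arrays, where 0 genes were called and the smallest adjusted p was 1.0.

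The difference between the areas was tested as the slope of each mouse's motor minus sensory value. No gene was called, 490 (2.69%) were under an unadjusted p of 0.05, and the smallest limma adjusted p was 0.873, for Ifi27l2a. The motor slope of Ifi27l2a was 1.51 ± 0.30 and its sensory slope 0.48 ± 0.40, a difference of 1.02 ± 0.13. In motor arrays it ran from 7.58 in mouse 1 to 9.51 in mouse 5, and in sensory arrays from 8.54 in mouse 1 to 9.65 in mouse 2. Rtp4, another interferon-induced gene, stood at 1.06 ± 0.46 in motor and 0.23 ± 0.52 in sensory arrays. The interferon list had median slopes of 0.86 and 0.35, class I of 0.93 and 0.48 and class II of 1.19 and 0.81 in motor and sensory arrays.

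In the other direction S100a8 had a motor slope of 0.52 ± 0.22 and a sensory slope of 1.86 ± 0.48, a difference of -1.34 ± 0.47 that did not pass the test (limma adjusted p = 1.0). The genes of smallest p for a more positive slope in sensory than in motor arrays were the potassium channel gene Kcnj13, at -0.81 ± 0.25 in motor and 0.07 ± 0.24 in sensory arrays, the drug-metabolising enzyme gene Cyp3a11, at -0.42 ± 0.12 and 0.42 ± 0.13, and the serotonin receptor gene Htr2b, at -0.34 ± 0.14 and 0.34 ± 0.11. Cyp3a11 and Htr2b lie at the 15th and 13th percentile of levels. Kif2b, a kinesin gene at the 1st percentile, stood at 0.47 ± 0.14 in motor and -0.19 ± 0.11 in sensory arrays.

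**Figure D5:**
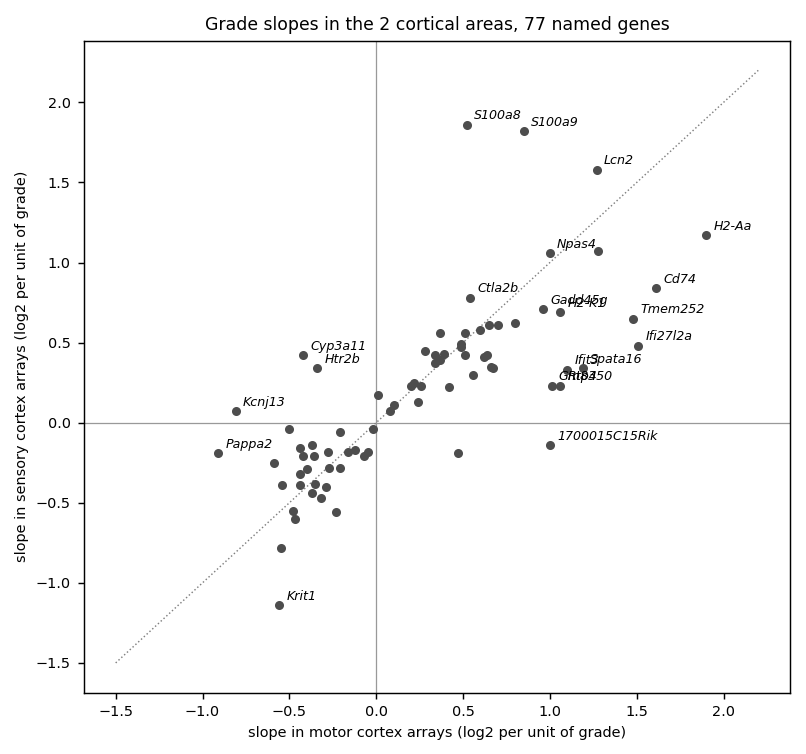
Slope on clinical grade in sensory arrays (vertical axis) against that in motor arrays (horizontal axis), in log2 units per unit of grade, for the 77 named genes; the dotted line marks equal slopes. Ifi27l2a, Ifit3, Rtp4, the class II genes and Spata16 lie below the line, S100a8 and S100a9 above it, and no difference between areas passed the test.

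With the cohort effect estimated from 10 mice, the 8 genes of smallest p, 4 in each direction, included 4 already named for grade alone. Of these, Spata16 stood at 0.91 and Arhgef3 at 0.64 in that fit, and H3f3a and Mir138-2 at -0.48 and -0.45. Cpeb2, a regulator of translation, stood at 0.97 against 0.50 for grade alone, and Tbr1 at 0.91 against 0.48. Cpeb2 had means of 11.12, 11.18, 11.62, 10.98, 11.56 and 11.64 in mice 1, 3, 2, 4, 5 and 6, and the healthy mice of the second cohort lay 0.34 below those of the first. On the negative side the vesicle GTPase gene Rab3d stood at -0.82 and Tnfrsf25, a death receptor of T cells, at -1.26. The smallest limma adjusted p of these 8 genes was 0.356.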

How the data were processed

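RNA from motor and sensory cortex of 6 EAE and 4 healthy mice was measured on Affymetrix arrays. Deposited values span 3.79 to 15.1 and are log2 expression as the authors processed it. The submitters' processing notes name the RMA method and the Partek software; their versions are not given in the sources used here. Summarising with RMA compresses differences at low signal, and no detection calls were used.

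Of 45101 probe sets 34958 had 1 gene symbol in the supplied platform annotation, 932 had several and 9211 were not listed. Each of 18194 genes was represented by its probe set of highest mean. Of 407 entries in 33 lists 371 were measured. The 2 arrays of a mouse share an animal number in the labels and were averaged. Their deviations from the group means correlated at -0.032 to 0.587. For EAE mice 1, 3 and 5 and healthy mouse 3 the motor array correlated best with the sensory array of another mouse. In the block fit the consensus correlation within a mouse was 0.123. Limma 3.58.1 in R 4.3.3 (lmFit, eBayes, two-sided) fitted the slope on grade, adjusted by the Benjamini-Hochberg method and called under 0.05. Each printed adjusted p is from limma. The p-values measure the spread between the mice of their fit, which are 6 unless healthy mice enter it or a mouse is left out. Fits of a single area use 1 array of each mouse. The number of arrays limits the precision. Correlations of single genes used exact permutations and were computed for 77 named genes. The fits were checked on simulated data, in which 200 of 18194 genes were given slopes of 0.5, 1 or 2 log2 units per unit of grade. The fit for grade alone called 31%, 86.5% and 98.5% of these genes. With cohort as a covariate it called 0%, 38.5% and 93%, so slopes of the size of most printed here would mostly be missed in that fit. Python 3.11.15 was used for counts.

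Named genes were the 10 smallest p in each direction, the 4 smallest in each direction with the cohort effect from 10 mice, the smallest p of each list, a fixed set of 18 genes (Lcn2, S100a8, Cd74, H2-Aa, H2-K1, Ifit3, Irf7, C1qb, P2ry12, Gfap, Serpina3n, Mbp, Plin4, Fkbp5, Lrg1, Slc17a7, Pvalb and Fos), and the 3 smallest p in each direction for the difference between areas; models and clones were passed over except where called. The members and lists were chosen with earlier results of these data known. Promoter and microRNA sequences are from RefSeq (GRCm38.p6).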

Additional observations from a re-analysis of the deposited data

Results flagged for a closer look

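Each named gene was examined for an EAE or healthy mouse that lay apart from the rest of its group (Dixon's ratio of gap to range, 95% critical value). Among 154 sets of mice 2 met this, which is fewer than the rate of about 1 in 20 that chance alone gives. For S1pr3, a sphingosine-1-phosphate receptor of reactive astrocytes, EAE mouse 1 stood at 10.19, with a gap to the next mouse of 0.63 of the range. For Plin4, EAE mouse 1 stood at 8.93, below the other EAE mice, with a gap of 0.83 of the range. Mouse 1 has the lowest grade, and without it the slope of S1pr3 was -0.06 against -0.23 with it, and that of Plin4 was 0.03 against 0.38.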

How the results depend on the processing

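With cohort as a covariate, the cohort effect from 10 mice, sensory arrays alone, quantile normalization, the genes of lowest level left out, the mean of all probe sets, ranked grades and a trended variance, limma called 0 genes, as it did on mouse means; motor arrays alone gave 4. With all 12 arrays and the mouse as a block, which uses the pairing of the 2 arrays, 0 genes were called and 1595 were under an unadjusted p of 0.05. Leaving out each mouse gave 0 to 23 calls and 981 to 2064 genes under the unadjusted p. Without mouse 5 the 23 calls comprised 4 positive slopes, among them S100a9 (1.78), Tmem252 (1.40) and Spata16 (0.85), and 19 negative ones, among them Krit1 (-1.09), and without mouse 6 the single call was Fosb at 2.70. Sensory arrays alone gave 494 genes under the unadjusted p, and 142 genes followed the order of grades in sensory arrays and 6 in both areas, against 288 in mouse means. 

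Of 1420 alternative values of single slopes and of slope differences between areas 1396 kept direction and side of the threshold, 8 passed it and 16 reversed. The count leaves out the mouse-mean slopes of Rtp4, Kif2b, Kcnj13, Cyp3a11 and Htr2b, which were named only for area differences. Outside the count, Kif2b went from 0.14 to -0.19 and Kcnj13 from -0.37 to 0.07 in sensory arrays. No named gene passed the threshold in mouse means and many were chosen on these arrays, so the count is largely set by that choice. A kept slope can also shrink to near zero. Lrg1 went from 0.37 to 0.00 and Nts from -0.25 to -0.01 with cohort as a covariate. With cohort as a covariate Npas4 (-0.13), Lcn2 (-0.81) and Fos (-0.76) reversed; with the cohort effect from 10 mice, Drd2 (0.00) and Slc17a7 (0.01); in sensory arrays, 1700015C15Rik (-0.14); with all probe sets averaged, Sdha (-0.05); and without the sensory array of mouse 3, an alternative chosen after seeing the data, Serpina3n (-0.01) and Pvalb (0.02). With single mice left out, slopes ran from -0.57 to 0.03 for P2ry12, -0.11 to 0.23 for Serpina3n, -0.16 to 0.60 for Fkbp5, -0.11 to 0.01 for Pvalb, -0.05 to 1.97 for Npas4, -0.10 to 0.58 for Irf7 and -0.38 to 0.98 for Fos. The causes were not tested. With 6 mice at 4 distinct grades no permutation p can fall below 0.00556, and 36.4% of the grade variance within cohorts limits what the cohort fits can show.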
